A study of Homo sapiens with 2 samples.

Results

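NEAT1 and MALAT1 are neighboring genes of nuclear long noncoding RNAs, and SFPQ, NONO, PSPC1, RBM14 and TARDBP encode RNA-binding proteins that gather on NEAT1 in the nuclear bodies called paraspeckles. The 7 genes were found on the arrays by name, as all gene probes whose gene name equaled one of these symbols on both arrays. They were 7 of 27267 gene names and had 14 of 34127 gene probes, of which 12 were well above background. The set was chosen by the low array ratios of NEAT1 and MALAT1, known from earlier results of the same arrays, so the ratios of this pair are given as a description. The protein genes were chosen for their known place in the body, but also with those results in view.

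The arrays compared ALDH+ cells with ALDH- cells of RMG1, an established ovarian cancer cell line derived from a clear cell adenocarcinoma. The ALDEFLUOR assay stains cells by aldehyde dehydrogenase (ALDH) activity, and the study sorted the bright cells as stem-like cancer cells to find genes that they express more than 2-fold above the ALDH- cells. Both populations came from the same line, grown in DMEM/F12 with serum, with no other treatment named in the labels. The labels name RMG1, whereas the methods name AMOC2, a serous line, as the source of this RNA. RNA was primed with an oligo dT primer, and each population's product was labeled with Cy5 on one of 2 arrays and with Cy3 on the other, both on 1 slide. There was 1 RNA extract of each population, so the arrays are 1 replicate with exchanged dyes. The populations could not be tested against each other, and every spread given below is a technical SD over the 2 arrays.

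As background, NEAT1 is made in a short form with a poly(A) tail and a long form without one. The long form is the scaffold of the paraspeckle: SFPQ and NONO coat and stabilize it, and without it the body does not assemble. Paraspeckles can hold back proteins and edited RNAs in the nucleus, and NEAT1 is known to respond to stress and to p53. MALAT1 lies beside NEAT1 on chromosome 11, stays in the nuclear speckles, where splicing factors are stored, and was first described in metastatic lung cancer. The 3′ ends of MALAT1 and of long NEAT1 are not made by polyadenylation. RNase P cuts them, and a triple helix then protects them.

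Each of the noncoding RNAs was read by 1 probe of 60 bases, so all values of NEAT1 and MALAT1 rest on 1 probe each. By its place in the array design, the NEAT1 probe lies beyond the end of the short form, so it reads the long form only. The MALAT1 probe, chr11:65272873-65272932 of hg19 on the plus strand, starts at base 7640 of NR_002819, in the 3′ part of the transcript, and has a GC content of 38.3%. MALAT1 is noncoding, so its probe does not lie in a coding exon. The probe carries the sequence of the RNA itself, 5′ to 3′, and is shown because every MALAT1 value comes from it.
MALAT1: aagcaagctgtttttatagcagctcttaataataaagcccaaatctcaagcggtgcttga

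NEAT1 was lower in ALDH+ cells with either dye. With ALDH+ cells in Cy5, the mean spot signal of the NEAT1 probe, in intensity units before normalization, was 1495 in ALDH+ cells and 3393 in ALDH- cells. With the dyes exchanged it was 727 in ALDH+ cells and 6988 in ALDH- cells. The ALDH- signal was thus 2.27 times the ALDH+ signal on the first array and 9.61 times on the second. After background correction and dye normalization, the log2 ratio of ALDH+ over ALDH- cells was -2.26 and -2.57. The mean was -2.42 ± 0.22 (technical SD, 2 arrays), or 5.34-fold lower in ALDH+ cells. It was the lowest of the 13720 genes measured. A gene counted as measured when, on each array, at least one population gave a signal well above background, and its brightest such probe stood for it. That population had to be the same on each array. In bulk RNA, fewer cells that express a gene and less of its RNA in each cell cannot be told apart. The RNA was primed with oligo dT, whereas the 3′ ends of long NEAT1 and of MALAT1 are not made by polyadenylation. How these RNAs were primed was not tested, so their ratios are those of the labeled product.

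MALAT1 was also lower with either dye. Its signal was 555 in ALDH+ cells against 974 in ALDH- cells with ALDH+ cells in Cy5, and 371 against 1748 with the dyes exchanged. The ALDH- signal was the higher one on both arrays. The log2 ratios were -1.62 and -1.69, with a mean of -1.66 ± 0.056 (technical SD), which is 3.15-fold lower in ALDH+ cells. MALAT1 ranked 5 among the 13720 genes, counted from the lowest. The ratio of NEAT1 was lower than that of MALAT1 on each array, with differences of -0.65 and -0.87 on the log2 scale. The technical SD of MALAT1 was below the median over all genes, 0.11, and that of NEAT1 was between this median and the 95th percentile, 0.37.

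**Figure D1:**
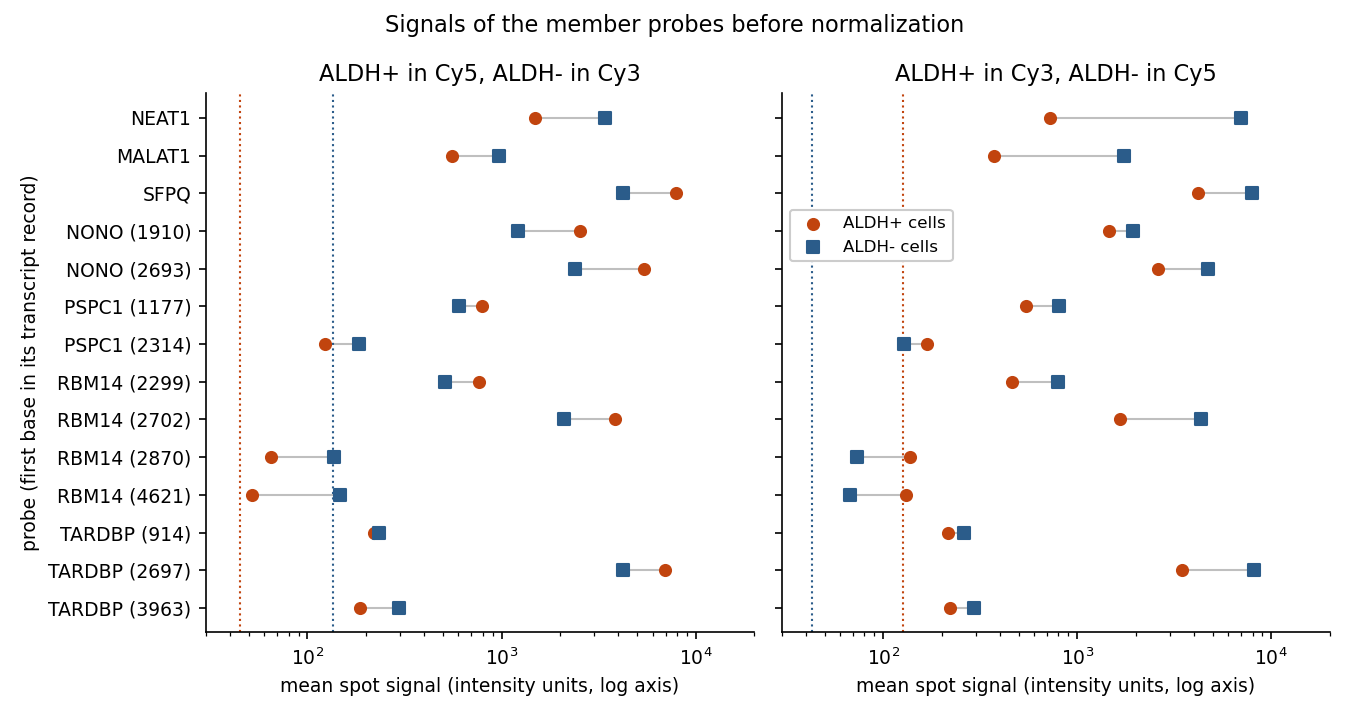
Mean spot signal of the 14 probes before normalization, on a log axis in intensity units, for ALDH+ cells (circles) and ALDH- cells (squares) on each array. Numbers after gene names are the first base of the probe in its transcript record, and dotted lines are the median of 153 negative control spots in each population. NEAT1 and MALAT1 had more signal in ALDH- cells under both dye orders, whereas the brightest probe of each of the 5 protein genes was brighter in whichever population carried Cy5.

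NEAT1 and MALAT1 were the 2 member genes whose mean ratio passed 2-fold, the threshold the study uses, and both were lower. Over all genes measured, 97 were lower past 2-fold, or 0.707%, and 29 were higher, or 0.211%, which together made 0.918%. With median centring of each array in place of the intensity-dependent loess normalization, 45 were lower and 53 higher. With the ratio of the array software 276 were lower and 137 higher, and with a smaller offset in the background correction 124 and 65. NEAT1 and MALAT1 were among the lower genes under each of these settings. None of the 5 protein genes passed 2-fold in either direction. The choice of the pair used these ratios, so nothing is read from their share.

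**Figure D2:**
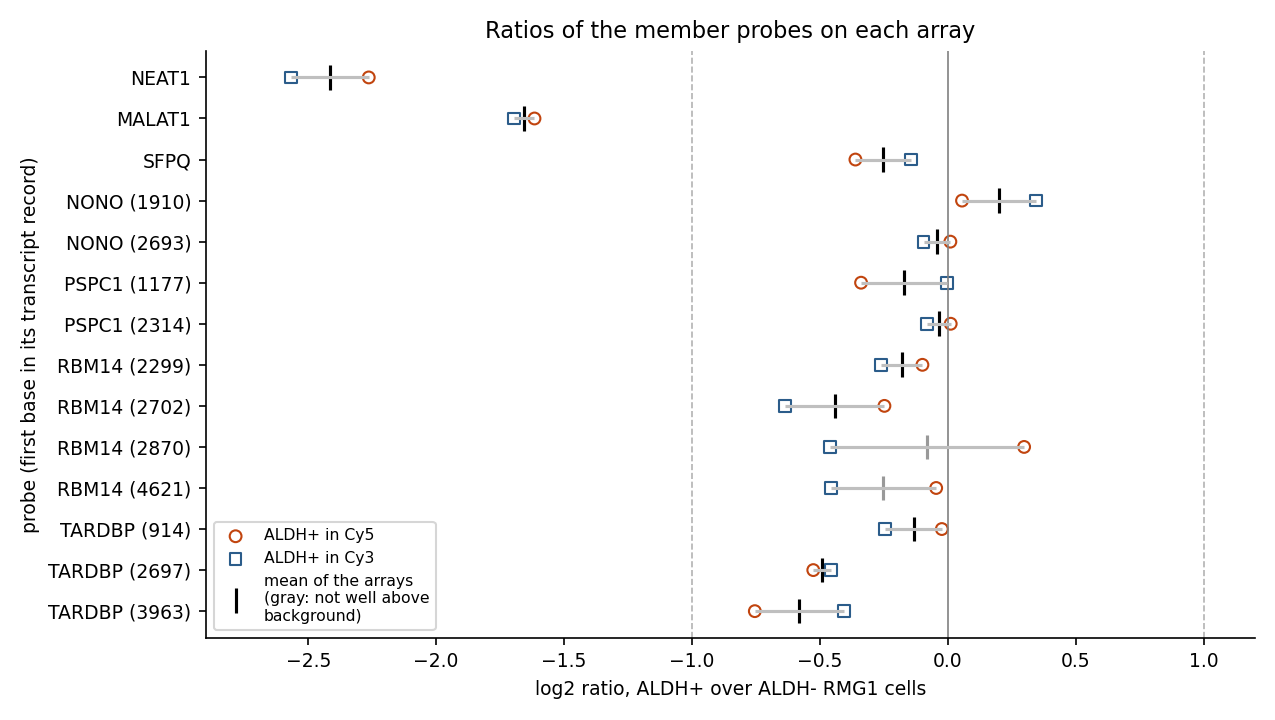
Log2 ratio of ALDH+ over ALDH- RMG1 cells for the 14 probes, with ALDH+ cells labeled in Cy5 (circles) or in Cy3 (squares), and as the mean of the arrays (ticks). The dashed lines mark 2-fold. NEAT1 (-2.42) and MALAT1 (-1.66) lie past the lower line on both arrays, and no probe of the 5 protein genes has a mean past it.

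The 5 protein genes had mean log2 ratios between -0.49 and -0.04, with a median of -0.25 (-0.34 with ALDH+ cells in Cy5 and -0.14 with the dyes exchanged). Over all genes measured the median was -0.0023, and 50.4% of genes had a ratio below 0. All 5 protein genes had one, but with median centring the median of the 5 was -0.085 and NONO was above 0. The median of all genes was then 0.073. Of their 12 probes, 10 were well above background, and 9 of these 10 had a mean ratio below 0.

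SFPQ and NONO, close relatives that pair through their helical domains, bind along NEAT1 and are needed for the body. The SFPQ probe, on the minus strand at chr1:35649241-35649300, gave signals of 7912 in ALDH+ and 4240 in ALDH- cells on the first array and 4185 and 7926 on the second. The population with Cy5 was the brighter one each time. The log2 ratios of SFPQ after dye normalization were -0.36 and -0.14, with a mean of -0.25 ± 0.15, or 0.840-fold, and 19.1% of the genes measured had a lower ratio. With median centring SFPQ was at -0.0025, so its distance from 0 depended on the normalization.

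The brighter NONO probe, chrX:70520608-70520667, starts at base 2693 of NM_007363 and had signals of 5390 and 2398 (ALDH+ and ALDH-) on the first array and 2596 and 4732 on the second. The ratios were 0.01 and -0.09, with a mean of -0.04 ± 0.074. A second probe, which starts at base 1910, had signals of 2550 and 1222 on the first array and 1461 and 1933 on the second. Its ratios were 0.06 and 0.34, with a mean of 0.20 ± 0.20. The probes of NONO thus lay on either side of 0, and its mean over both probes was 0.079. No direction can be given for NONO: the brighter probe was at -0.04, at 0.16 with median centring and at 0.01 on the first array alone.

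PSPC1, the third protein of the SFPQ and NONO family, was read by a pair of probes. The brighter, on the minus strand at chr13:20315706-20315765, had signals of 791 and 603 on the first array and 544 and 808 on the second. Its ratios were -0.34 and -0.0036, with a mean of -0.17 ± 0.24, so the technical SD was larger than the mean. The other probe belongs to ENST00000338910, another transcript of the gene, and was dim, with signals between 124 and 184. Its mean ratio was -0.04 ± 0.066. Neither probe of PSPC1 stood apart from 0 by more than its technical SD.

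RBM14 joins paraspeckles through a domain that resembles a prion, and the body needs it to form. Its brightest probe, chr11:66394693-66394752, had signals of 3841 and 2108 on the first array and 1662 and 4367 on the second, which gave ratios of -0.25 and -0.64. The mean was -0.44 ± 0.27, or 0.736-fold, and 8.75% of the genes had a lower ratio. A second probe in the same record had ratios of -0.10 and -0.26, with a mean of -0.18 ± 0.12. The other 2 RBM14 probes were not well above background in ALDH+ cells on either array, and their mean values of -0.25 and -0.08 were not used. RBM14 lies on the same chromosome as NEAT1 and MALAT1, and its nearest probe is 1118 kb from the MALAT1 probe.

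TARDBP encodes TDP-43, which binds UG-rich RNA, NEAT1 among it, and also lowers its own messenger RNA by binding near its 3′ end. Its brightest probe, chr1:11084030-11084089, had signals of 6942 and 4208 on the first array and 3472 and 8146 on the second. The ratios of this TARDBP probe agreed closely between the arrays, at -0.53 and -0.46. Their mean of -0.49 ± 0.049 is 0.712-fold, and 6.92% of the genes measured had a lower ratio. With median centring it was -0.25, and it was below 0 under every setting run. TARDBP had the lowest mean ratio of the 5 protein genes, but RBM14 was lower than TARDBP with median centring (-0.26) and on the second array alone (-0.64 against -0.46).

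The TARDBP probes differed among themselves. All 3 belong to NM_007375. The probe that starts at base 914, in the coding part, had a mean ratio of -0.13 ± 0.16. The bright one, at base 2697, had -0.49, and the one at base 3963, near the 3′ end, had -0.58 ± 0.25. The last was dim, with signals between 186 and 296, and its ratio reached 2-fold in the array software's own scale and was -0.71 with the smaller offset. The gap between the extremes was 0.45 on the log2 scale, where the median gap over 2508 genes with several measured probes was 0.17, and 9.29% of them had a larger gap.

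In each of the 3 protein genes with several measured probes on 1 transcript record, the probe farther downstream had the lower ratio. The downstream minus upstream difference of the log2 ratios was -0.45 for TARDBP, -0.26 for RBM14 and -0.24 for NONO, and it was below 0 on each array for all 3. Over 1924 transcripts of the array with such probes, 59.9% also had a lower ratio downstream, with a median difference of -0.054. NEAT1 and MALAT1, with 1 probe each, cannot be looked at in this way.

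Of 38 other proteins seen in paraspeckles, 34 were measured, and 22 had a ratio below 0 and 12 above it. Their median was -0.12 (-0.05 and -0.19 on the arrays). None was past 2-fold, and of all genes measured 0.918% were. With median centring 19 were below 0 and 15 above, with a median of -0.042, where that of all genes was 0.073. The lowest were SMARCA4, the ATPase of SWI/SNF chromatin remodelers, at -0.78, AHDC1 at -0.66 and the splicing regulator HNRNPH1 at -0.37. The highest were the RNA-binding proteins HNRNPA1 at 0.53, the cold-inducible RBM3 at 0.43 and RBMX at 0.40. The members of this list thus spread to both sides of 0.

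The nuclear speckle list holds splicing factors and their scaffolds, the neighbors of MALAT1 in the nucleus. All 29 genes were measured, 20 below and 9 above 0, with a median of -0.17 (-0.16 and -0.12). With median centring 13 were below and 16 above, with a median of 0.0064, where that of all genes was 0.073. The lowest were SRSF1, a splicing factor whose distribution MALAT1 is known to influence, at -0.77, the speckle scaffold SRRM2 at -0.58 and NKTR at -0.49. The highest were the splicing factors TRA2A at 0.25, SRSF7 at 0.12 and SRSF9 at 0.11. None of the 29 passed 2-fold in the mean, and of all genes measured 0.918% did. The SRSF1 probe was dim, with a mean log2 intensity of 7.65, where that of SRRM2 had 12.81. SRSF1 was lower past 2-fold with the array software's ratio and in the joined table.

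Genes for the machinery that cuts, protects or degrades nuclear RNA ends had a median of -0.11, with 11 of 17 below 0 and 6 above. With median centring the median was 0.035, above 0 but below the median of all genes, which was then 0.073. DGCR8, the partner of DROSHA in microRNA processing, was the lowest at -0.51. It was followed by METTL16, which binds the MALAT1 triple helix, at -0.42 and by the poly(A)-binding protein ZC3H14 at -0.41. The highest were RPP40 at 0.31, RPP30 at 0.21 and RPP38 at 0.17, which are subunits of RNase P. The 9 measured protein subunits of that enzyme lay on both sides of 0, with 5 above it and 4 below: POP1 at -0.38, POP5 at -0.16, RPP14 at -0.16 and RPP25 at -0.04.

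Other long noncoding and structural RNAs did not share a direction. Of 28 with a probe, 23 were measured, 11 below and 12 above 0, with a median of 0.0029. None passed 2-fold in the mean, and of all genes measured 0.918% did. With median centring 8 were below and 15 above 0, with a median of 0.15, where that of all genes was 0.073. The lowest were NORAD, which sequesters PUMILIO proteins, at -0.92, TUG1 at -0.76 and KCNQ1OT1, a nuclear RNA that silences imprinted genes, at -0.75. NORAD passed 2-fold on 1 array (-0.68 and -1.15). KCNQ1OT1 was lower past 2-fold with the array software's ratio and with the smaller offset, but its probe was dim (mean log2 intensity 7.39). The highest were SNHG7 at 0.66, EPB41L4A-AS1 at 0.56 and DANCR at 0.49, which all host small nucleolar RNAs. RNAs of the list that end without a poly(A) tail were RN7SK, which holds back the kinase P-TEFb, at -0.68, RMRP at -0.31, RPPH1, the RNA of RNase P, at -0.24 and TERC, the telomerase RNA, at 0.03.

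The RNAs encoded in mitochondria were listed because earlier results showed them lower in ALDH+ cells, so their values are given as a description. All 12 with a probe were measured, and all 12 had a ratio below 0, with a median of -1.21 (-1.16 and -1.25) and 9 past 2-fold. Over all genes measured, 0.707% were lower past 2-fold. With median centring all 12 were still below 0, but the median was -0.81 and 4 were past 2-fold. The lowest were ND4L at -1.68 and ND6 at -1.31, subunits of complex I, and COX1 at -1.47, of complex IV. The others past 2-fold were ND5, ND4, ATP6, CYTB, COX3 and ND2, at -1.13 to -1.27. The highest were ND3 at -0.49, ND1 at -0.79 and ATP8 at -0.94. The summed signal of the list was 224412 in ALDH+ and 179591 in ALDH- cells with ALDH+ cells in Cy5, and 89529 and 384479 with the dyes exchanged. Whether this shift has a part in the ratios of NEAT1 and MALAT1 was not tested.

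**Figure D3:**
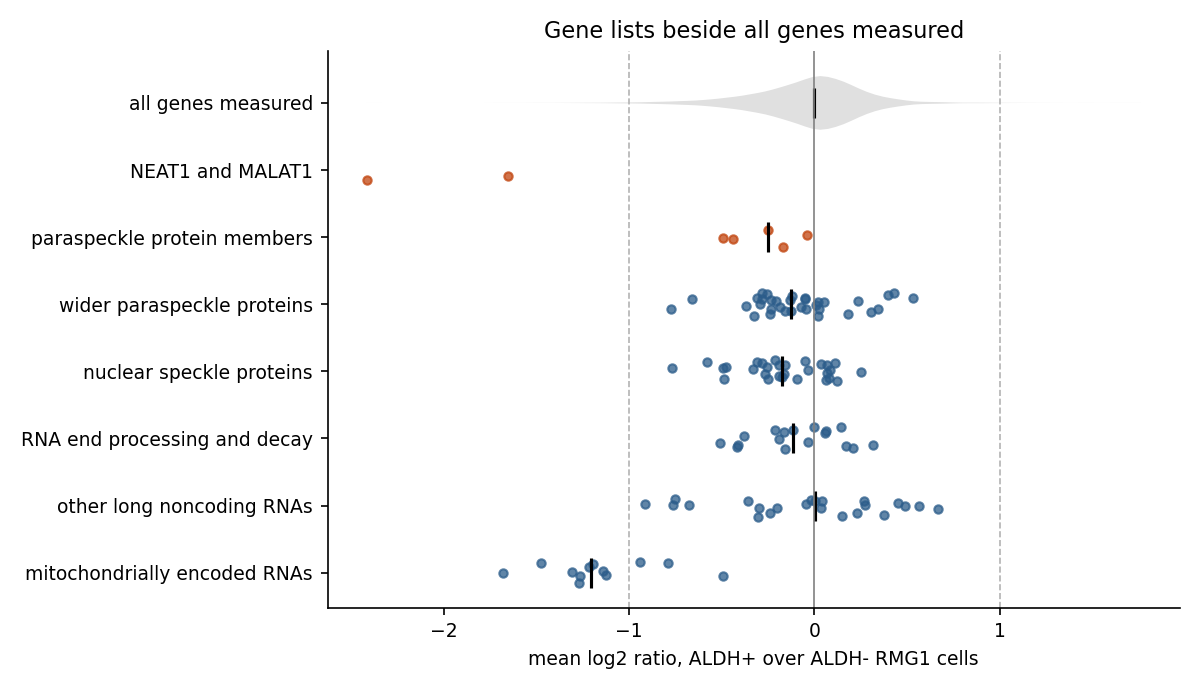
Mean log2 ratio of ALDH+ over ALDH- RMG1 cells for NEAT1 and MALAT1, for the genes of 6 lists (1 point per measured gene, shifted vertically at random) and for all 13720 genes (gray density), with black ticks at the medians and dashed lines at 2-fold. NEAT1 and MALAT1 lie past 2-fold with 9 of 12 mitochondrially encoded RNAs, and no gene of the other lists has a mean past it. Of all genes measured, 0.918% were past 2-fold. With median centring 4 of the 12 are past 2-fold. The pair and the mitochondrial list were chosen with their low ratios known.

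The genes around NEAT1 and MALAT1 were measured on the same arrays. Within 100 kb of either probe, 15 probes of 12 other genes were examined. Of these, 9 probes of 8 genes were well above background, with mean log2 ratios between -0.54 and 0.18. On one side FRMD8 was the nearest measured gene, 25.8 kb from the NEAT1 probe, at -0.54 ± 0.19, with signals of 1525 and 1054 (ALDH+ and ALDH-) on the first array and 787 and 2030 on the second.

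Of the others, LTBP3, which binds latent TGF-beta, was at -0.26, EHBP1L1 at -0.28, the kinase MAP3K11 at -0.10, DPF2, a chromatin remodeler subunit, at 0.02, ZNRD2 at 0.14 and FAM89B at 0.18. The SLC25A45 probes were at 0.02 and 0.08. The 1 probe between the pair, for LOC100291851, was not well above background, nor were those of TIGD3, KCNK7 and LOC254100 and second probes of FRMD8 and LTBP3. None of these neighbors had a mean past 2-fold, and of all genes measured 0.918% did, so nothing is read from this count. FRMD8, at -0.54, was lower than TARDBP at -0.49, below which 6.92% of the genes measured lay.

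**Figure D4:**
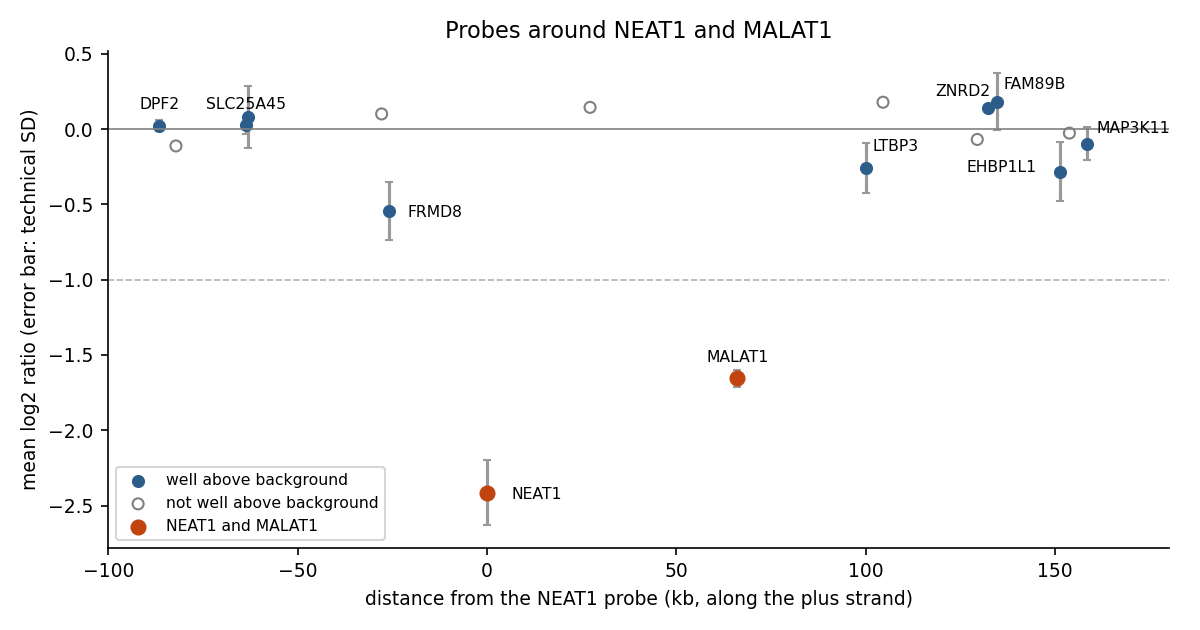
Mean log2 ratio of NEAT1, MALAT1 and 15 other probes within 100 kb of either, each against its distance from the NEAT1 probe in kb, with bars for the technical SD of the 2 arrays where the probe was well above background. Filled points were well above background and open points were not. NEAT1 and MALAT1 lie below -1, and the other filled points lie between -0.54 and 0.18.

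Likeness here is the difference of 1 mean ratio, over 2 arrays of 1 replicate. NEAT1 had the lowest ratio, so the genes nearest to it could only be those ranked next, where MALAT1 also lies. A shared list therefore says nothing of a likeness within the pair. With NEAT1 and MALAT1 themselves left out, the 5 genes nearest in mean ratio were the same for both. They were CD86, a ligand that costimulates T cells, at -1.69 (-1.92 and -1.46), ND4L at -1.68, SPEN, a transcriptional corepressor, at -1.67 (-1.88 and -1.46), LOC728392 at -1.55 and VPS18, a subunit of vesicle tethering complexes, at -1.55 (-1.76 and -1.34). CD86, ND4L and SPEN ranked between NEAT1 and MALAT1. Their gaps to MALAT1, up to 0.036, were smaller than its technical SD, so the order among these 4 is not settled. LOC728392 and VPS18 were each 0.11 above MALAT1, less than their own technical SDs of 0.18 and 0.30. Their order against MALAT1 is not settled either, whereas NEAT1 was 0.72 below CD86.

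The labeled cell type was checked against marker genes. Of 11 epithelial and ovarian carcinoma markers 10 were measured, with PAX8, a transcription factor of Müllerian tissue, at -0.74, MUC1 at 0.30 and a median of -0.04. None of 8 stromal and endothelial markers was well above background. Of 7 leukocyte markers with a probe, CD3E, MS4A1 and ITGAM were not, and the other 4 had a median of -0.02, with CD14 at 0.45. Their summed signal was 639 and 799 (ALDH+ and ALDH-) on the first array and 825 and 563 on the second. Each array had 43118 spots of gene probes, of which 21697 to 27979 were well above background in a population, and 0 were saturated. The negative control spots had median signals of 43.1 to 45.1 in Cy5 and 127 to 135 in Cy3.

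The values of the 7 genes were recomputed under other processing settings. NEAT1 stayed between -2.57 and -2.25 and MALAT1 between -1.84 and -1.57, each past 2-fold every time. TARDBP ran from -0.53 to -0.25, RBM14 from -0.64 to -0.25, SFPQ from -0.36 to -0.0025, PSPC1 from -0.34 to -0.0036 and NONO from -0.09 to 0.16.

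**Figure D5:**
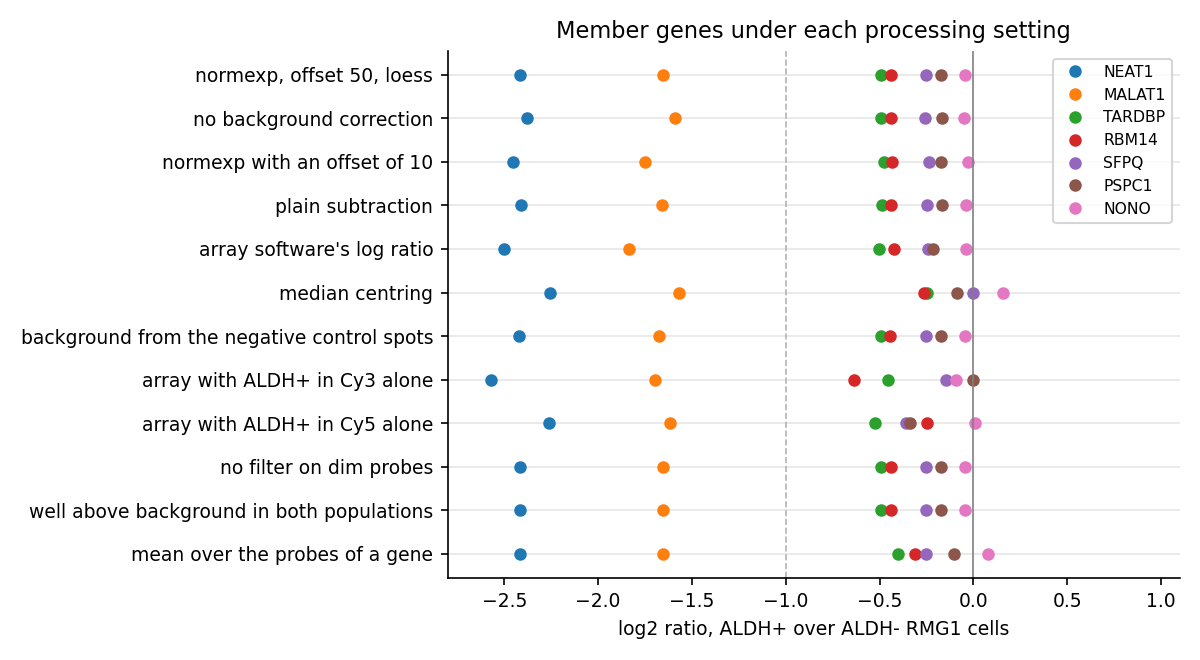
Log2 ratio of the 7 genes (colors) on the x axis under each processing setting (y axis), with the dashed line at 2-fold lower in ALDH+ cells. NEAT1 (-2.57 to -2.25) and MALAT1 (-1.84 to -1.57) stay past 2-fold, and the 5 protein genes stay between -0.64 and 0.16.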

How the data were processed

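Two-color arrays of 60-mer probes, 2 with the dyes exchanged, measured RNA of both RMG1 populations. Spot intensities and local background intensities were deposited by the authors without normalization, with quality flags of Feature Extraction (10.7.3.1 per the file headers, 8.5.1.1 per the submitters' processing notes). The log10 ratio of that software was deposited as well, and again in a table that joins both arrays. The joined table differed from the software's ratio by at most 2.2e-09 on the log2 scale at 43118 spots, and its 4 signal columns were not used.

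In limma 3.58.1 (R 4.3.3), the mean signals were corrected for the median local background by normexp (offset 50), and loess was then applied to each array. Control spots were left out, as were outliers (531 and 519 gene probe spots). Later steps used Python 3.11.15, numpy 2.4.6 and pandas 2.3.3. A probe was well above background where more than 50% of its spots were. Of 34127 gene probes, 16682 were so in either population on both arrays and 15370 in both populations. For 25422 probes the RefSeq accession gave the gene symbol (GRCh38.p14 table, names only), and the array's own name was used otherwise. Probe positions are those of the array design on hg19. Dim probes have their ratios drawn toward 0 by the offset.

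All member probes were named, with the neighbors within 100 kb and the 5 other genes nearest in ratio. Named too were the 3 highest and 3 lowest of each list, or any past 2-fold. The other genes named are further list or marker genes, chosen after their values were seen. The sequence of 1 probe, 1 neighboring gene and 1 marker gene are not reported here. The members and lists were chosen with earlier results of these data known. The background correction and loess were tested on simulated data, and the later steps were not. With 1 replicate no test was made, and the number of arrays limits the precision. The alternatives were median centring, background left uncorrected, subtracted plainly, taken from negative control spots or given an offset of 10, the software's ratio, the joined table, either array on its own, 2 other filters on dim probes, the mean over probes, 2-fold on each array and 1.5-fold.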

Additional observations from a re-analysis of the deposited data

How the results depend on the processing

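Here a ratio moved if it shifted by over 1 technical SD of the arrays, and a count if it shifted by over 1.5 times. No value of NEAT1 moved. MALAT1 had -1.84 in the joined table and with the software's ratio, -1.57 with median centring, -1.59 without background correction and -1.75 with an offset of 10. The median of the 5 protein genes was -0.085 with median centring, and that of the wider paraspeckle list did not move. The 29 higher and 97 lower genes became 137 and 276 with the software's ratio and the joined table, 53 and 45 with median centring, 65 higher with an offset of 10 and 19 higher without background correction. By construction 207 and 630 passed 1.5-fold. With either array alone NEAT1 ran from -2.57 to -2.26, MALAT1 from -1.69 to -1.62, the protein genes' median from -0.34 to -0.14, the wider list's from -0.19 to -0.05, and the counts from 33 to 34 higher and from 92 to 144 lower. Of 60 values of single protein genes under the alternatives, 5 moved and 3, all of NONO, had the other sign: 0.16 with median centring, 0.079 as the mean over its probes and 0.01 without the array that carried ALDH+ cells in Cy3. The cause was not tested. The 2 filters on dim probes left every one of these values as it was, and the joined table repeats the software's ratio. Those settings thus add nothing to the count of values that stayed. With median centring the median of all genes was 0.073. Signal over background limited the RBM14 probes that were not well above background, and 1 extract of each population limits every value. Each ratio pairs both populations on the same array, but the arrays are 1 replicate, so no test was run.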
